A study of Elopichthys bambusa with 12 samples.

Results

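The 6 livers of fasted yellowcheek carp fell into 2 sets of 3 that did not follow the length of the fast. Set A comprised replicate 2 of the 8-day fast and replicates 2 and 3 of the 28-day fast, and set B comprised replicates 1 and 3 of the 8-day fast and replicate 1 of the 28-day fast. They are 6 of the 12 liver libraries of the series, and the 6 libraries from fed fish serve here as a background that took no part in choosing the sets. The division was read from the expression values of the fasted libraries themselves. The differences between the sets are therefore given as a description, with the value in each library and with no test.

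The yellowcheek carp (Elopichthys bambusa) is a large predatory freshwater fish of the carp family. Liver RNA was sequenced from 4 groups of 3 libraries each: fish without food for 8 days, fish fed a commercial diet over the same 8 days, and the corresponding fasted and fed groups at 28 days. The labels give no strain, age or sex, and they do not say whether a library holds 1 fish or a pool. P-values below therefore measure the spread between libraries, which may be partly technical.

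In a fasting fish the liver gives up glycogen and then lipid, lowers the making of fat and of export proteins, and raises the oxidation of fatty acids and the breakdown of amino acids. It also makes most proteins of the blood plasma and, in many fish, stores much of the body's fat. The files carry identifiers of a transcript assembly and no gene names, so the features that divide the livers are described here by their abundance, length, identifier and behaviour in fed fish, and no pathway or cell type list could be applied. Markers of liver cells could not be checked for the same reason.

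The tables held 42353 features, of which 32212 passed a filter on low counts. The libraries held 16785827 to 19901335 estimated counts. Values are given as CPM, counts relative to the library size, scaled by TMM, a factor for each library that evens out differences in composition. The TMM factors moved with the division: they were 1.20, 1.22 and 1.09 in set A (8 d replicate 2, 28 d replicate 2, 28 d replicate 3) and 0.94, 0.937 and 0.996 in set B (8 d replicate 1, 8 d replicate 3, 28 d replicate 1). Fed 8-day libraries had factors of 1.03, 1.05 and 1.02, and fed 28-day libraries had 0.842, 0.835 and 0.917. The part of this scaling in the division was not tested, but the counts of dividing features under other scalings are given beside the main counts.

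Across all features tested, livers of one set resembled each other more than livers of the same fasting time. Pearson's r of log2(CPM + 1), taken over the features as a description, was 0.947 to 0.954 for the 3 pairs within set A and 0.945 to 0.957 for the 3 pairs within set B. For the 9 pairs across the sets it was 0.912 to 0.931. The highest value among fasted libraries, 0.957, belonged to replicate 1 of the 8-day fast and replicate 1 of the 28-day fast, both of set B. Their counts differed by 9.70 times the sampling noise (chi-square per feature), so even the most similar pair was not a library deposited a second time. Fed libraries of the same day reached 0.944 to 0.964 with each other. The sets were chosen on these same fasted values, so a higher r within a set than across the sets is built in. The fed groups were given by the labels and not chosen in this way. A like range of r therefore does not show that a set was as uniform as a fed group.

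Both sets lay closer to fed livers of 28 days than to fed livers of 8 days, and set B lay somewhat closer to either. Set A had r of 0.866 to 0.892 with fed 28-day livers and 0.795 to 0.826 with fed 8-day livers. Set B had 0.885 to 0.909 and 0.818 to 0.838. These ranges overlap between the sets, and the pairs share libraries.

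Livers of set A had more detected features. At 10 or more estimated counts, 28589 features were detected in replicate 2 of the 8-day fast, 29684 in replicate 2 and 26991 in replicate 3 of the 28-day fast. Set B had 25223, 24751 and 25465 such features. The fed 8-day livers had 25033, 25522 and 23682, and the fed 28-day livers had 23877, 23760 and 23735. Each library of set A thus lay above each library of set B and above every fed library. At this bound and as deposited, set B lay within the range of the fed livers.

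Depth differed little between libraries, and the gap held at equal depth. When each library was thinned to 16767226 counts, the number of features at 10 counts was 27239, 28240 and 26137 in set A, 24297, 24256 and 24996 in set B and 22997 to 24642 in fed livers. At 1 or more counts the thinned libraries held 38520, 39197 and 37765 features in set A and 36702, 36329 and 37195 in set B. Fed livers held 35346 to 36341. After thinning, replicate 1 of the 28-day fast thus lay above every fed library at both bounds. Replicate 1 of the 8-day fast did so at 1 count. Set B was therefore not within the fed range throughout. The smallest distance between the sets was 1526 features as deposited and 1141 after thinning. It was 3124 without replicate 3 of the 28-day fast, the library of set A with the fewest detected features.

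**Figure D1:**
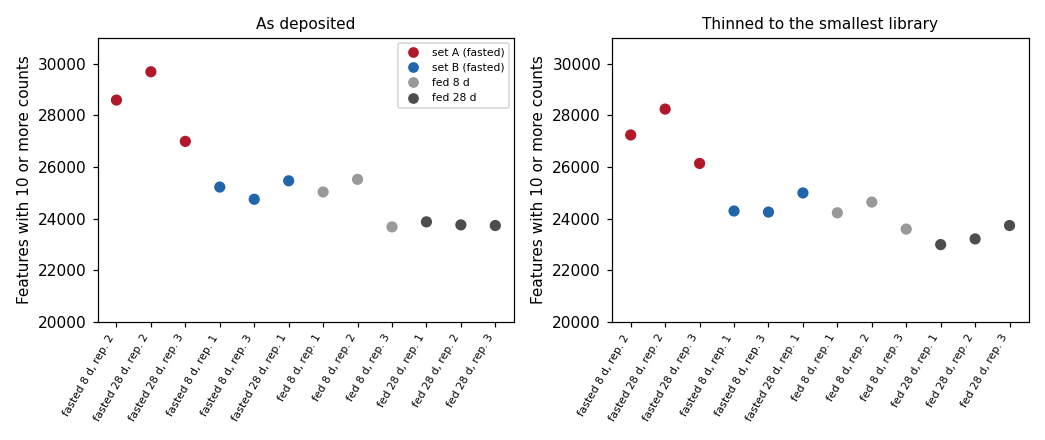
Number of features with 10 or more estimated counts in each of the 12 libraries, as deposited (left) and after thinning to the smallest library (right); each point is 1 library and the vertical axis does not start at 0. The 3 libraries of set A lie between 26991 and 29684 as deposited, above all other libraries, and set B lies between 24751 and 25465.

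Set A had more features of low and middle abundance per length. FPKM, the deposited value per kilobase of feature, was from 1 to 10 for 21806, 23171 and 20833 features in set A and for 19005, 18438 and 19387 in set B. Between 10 and 100 FPKM there were 4921, 4775 and 4458 features in set A and 3714, 3857 and 3887 in set B. At 100 FPKM or more the sets overlapped, with 611, 585 and 595 features in set A and 597, 580 and 592 in set B. Above 0 and below 1 FPKM there were fewer features in set A (12689, 12014 and 13674) than in set B (15509, 15552 and 15202). Part of the surplus above 1 FPKM can thus be features that moved up a class. FPKM carries no TMM scaling, and on it the median difference of all features, set A minus set B, was 0.24 on the log2 scale. In a bulk liver sample, more cells of a type and more RNA per cell cannot be told apart, and this touches each difference described here.

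The most abundant features took a smaller part of the counts in set A. The 10 most abundant features of a library held 19.4%, 19.7% and 19.8% of its counts in set A and 22.2%, 23.5% and 20.9% in set B. The 1000 most abundant held 81.2%, 81.1% and 82.6% in set A and 84.6%, 84.3% and 83.6% in set B. The sets did not overlap in either share. Fed livers of 8 days, at 81.2% to 81.7% for the 1000 most abundant, were at the level of set A, and fed livers of 28 days, at 83.9% to 85.7%, were near that of set B.

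A feature was counted as dividing where the lowest library of one set lay at least 2-fold above the highest library of the other on the log2(CPM + 1) scale. There were 363 such features. In 169, or 0.525% of the features tested, set A was higher, and in 194, or 0.602%, set B was higher. These percentages are themselves the background, since the sets were chosen on the same values, and nothing is read from them. Without a minimum gap, the sets did not overlap for 4579 features higher in set A (14.2%) and for 4328 higher in set B (13.4%).

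The division was made of many small gaps and a few large ones. The median gap was 1.25 on the log2 scale for features higher in set A and 1.26 for features higher in set B. A gap of 4-fold or more was seen in 22 features each way, and one of 8-fold or more in 4 and 3. Close to the bound, 33 features higher in set A had gaps within 0.1 above it and 47 had gaps within 0.1 below it. For set B these numbers were 43 and 54. The features nearest the bound had gaps of 1.001 and 0.997 for set A and of 1.003 and 0.998 for set B, so the lists have no natural edge.

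The balance between the lists depended on the scaling of the libraries. With RLE factors 160 features were higher in set A and 206 in set B, and with upper quartile scaling 173 and 182. With library size alone there were 293 and 107, and with the deposited FPKM 405 and 127. The median difference of all features between the sets was 0.01 on the log2 scale with TMM, 0.19 with library size alone and 0.24 with FPKM. Relative to TMM, the last 2 scales thus moved features toward set A. TMM aims at a typical difference near 0, so these values do not show which scale is right. All 169 features higher in set A kept their place with library size alone, and so did 107 of the 194 higher in set B. This was fixed in advance. The TMM factors were above 1 throughout set A and below 1 throughout set B. Leaving them out raises each value of set A and lowers each value of set B. It therefore tells nothing of how firm either list is.

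Features higher in set A were mostly scarce outside it. Their median was 8.86, 8.69 and 9.08 CPM in the libraries of set A. It was 1.40, 1.1 and 1.53 CPM in set B, 1.40, 1.66 and 1.25 in fed livers of 8 days and 1.57, 1.53 and 1.45 in fed livers of 28 days. By this median, set B and both fed groups were close to each other and set A stood apart.

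Features higher in set B showed the opposite arrangement. Their median was 22.2, 26.8 and 22.4 CPM in set B and 5.05, 4.53 and 4.83 CPM in set A. In fed livers it was 16.1, 16.5 and 16.7 CPM at 8 days and 23.9, 23.0 and 24.3 at 28 days. By the median of the whole list, the fed 28-day livers were thus at the level of set B, the fed 8-day livers somewhat lower, and set A apart. The place of the fed 8-day livers differed by the last number of the identifier, described below. For the 87 features ending in 1 their median was 4.28, 5.31 and 4.67 CPM, near set A at 3.64, 3.12 and 3.04. For the 44 ending in 4 it was 64.1, 68.1 and 73.3 CPM, above set B at 25.3, 23.3 and 22.4. It lay between the sets for the 39 ending in 2 (10.5, 12.7 and 11.9 CPM) and above set B for the 24 ending in 3 (52.4, 51.7 and 49.6 CPM). Per length, the features higher in set B were also the more abundant list in its own set: their median FPKM was 16.1, 18.6 and 16 in set B, where the features higher in set A had 8.97, 10.04 and 8.87 in set A.

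The rule requires at least 1 CPM in each library of the high set, so all 169 features higher in set A had 10 or more counts there. In the libraries of set B 114, 107 and 114 of them did, and in fed livers 105 to 124. For 12 of the 169 no library of set B had a count, and for 8 of the 194 features higher in set B no library of set A had one. At this depth an absent feature can still be at up to 3 counts per library, and this limit covers counting error only.

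Per length, dividing features were drawn from the more abundant part of the transcriptome. Classed by the highest FPKM in any fasted library, 70 of the 169 features higher in set A were from 1 to 10, 84 from 10 to 100 and 15 at 100 or more. Of the 194 higher in set B the numbers were 53, 108 and 33. At 100 FPKM or more, 2.02% of the 744 tested features were higher in set A and 4.44% higher in set B, against 0.309% and 0.234% of the 22675 features from 1 to 10. On the log2(CPM + 1) scale a feature must reach 1 CPM in every library of the high set to be counted as dividing.

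The dividing features were longer than most. The median length was 1105 nucleotides for features higher in set A, 1147 for those higher in set B and 760 for all features tested. The rule works on CPM, which is not divided by length, so it favours long features. The part of this in the difference was not tested. Few came from one assembly cluster, here the sequences that share both the first parts and the last number of the identifier. The 169 features came from 162 clusters and the 194 from 187. Sequences that share the first parts but not the last number, which is described below, counted as separate clusters. The largest group from 1 cluster held 4 features.

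Since the lists were chosen for a gap over all 6 fasted libraries, a difference of 1 sign at both fasting times is built in. Its median over features, set A minus set B, was 1.73 on the log2 scale at 8 days and 1.75 at 28 days for the features higher in set A. It was -1.87 and -1.68 for the features higher in set B.

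Within the sets 1 library stood out. Replicate 3 of the 8-day fast was the highest library of set B in 121 of the 194 features higher in set B (62.4%), against 35.0% of all features tested. It was also the lowest of set B in 77 of the 169 features higher in set A (45.6%, against 34.0% of all). It was thus the library farthest from set A more often than the other 2 of its set. Without it, 294 features were higher in set B, since a smaller set leaves fewer values to overlap.

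The feature with the largest gap toward set A among those at 10 CPM or more throughout the high set was TRINITY_DN16433_c0_g1_i2_3, of 1874 nucleotides. It stood at 181, 123 and 257 CPM in set A and at 2.60, 1.60 and 2.36 in set B. In fed fish it was at 7.07, 7.10 and 4.27 CPM at 8 days and at 99.8, 125 and 127 at 28 days. The lowest liver of set A had 47.2 times the CPM of the highest liver of set B, and the fed livers split by day, those of 28 days lying close to set A and those of 8 days close to set B.

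The feature higher in set A with the highest mean CPM in fasted fish was TRINITY_DN15053_c0_g2_i3_2, of 2459 nucleotides. It was at 1438, 1466 and 1690 CPM in set A, at 598, 573 and 557 in set B and at 863 to 1089 in fed livers. All 6 fed livers lay between the sets. Its FPKM was 706, 725 and 742 in set A and 224, 207 and 215 in set B.

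The largest gap toward set B was that of TRINITY_DN14680_c1_g4_i1_1, of 2510 nucleotides. It was nearly silent in set A, at 0.134, 0.290 and 0.206 CPM (3.18, 7.04 and 4.22 estimated counts), and at 13.2, 37.6 and 12.6 CPM in set B. In fed livers it was at 80.2, 74.3 and 45.2 CPM at 8 days and 66.7, 81.1 and 88.6 at 28 days. Every fed liver lay above every fasted liver, so set B held a middle place between fed fish and set A.

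The feature higher in set B with the highest mean CPM was TRINITY_DN14979_c4_g1_i1_1, of 4353 nucleotides. It was at 25955, 37478 and 26006 CPM in set B and at 11042, 9818 and 11938 in set A. Fed livers had 19449, 18991 and 23348 CPM at 8 days and 27435, 26298 and 27781 at 28 days. Set A was the lowest of all the groups, the fed 8-day livers lay between the sets, and the fed 28-day livers lay within the range of set B.

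**Figure D2:**
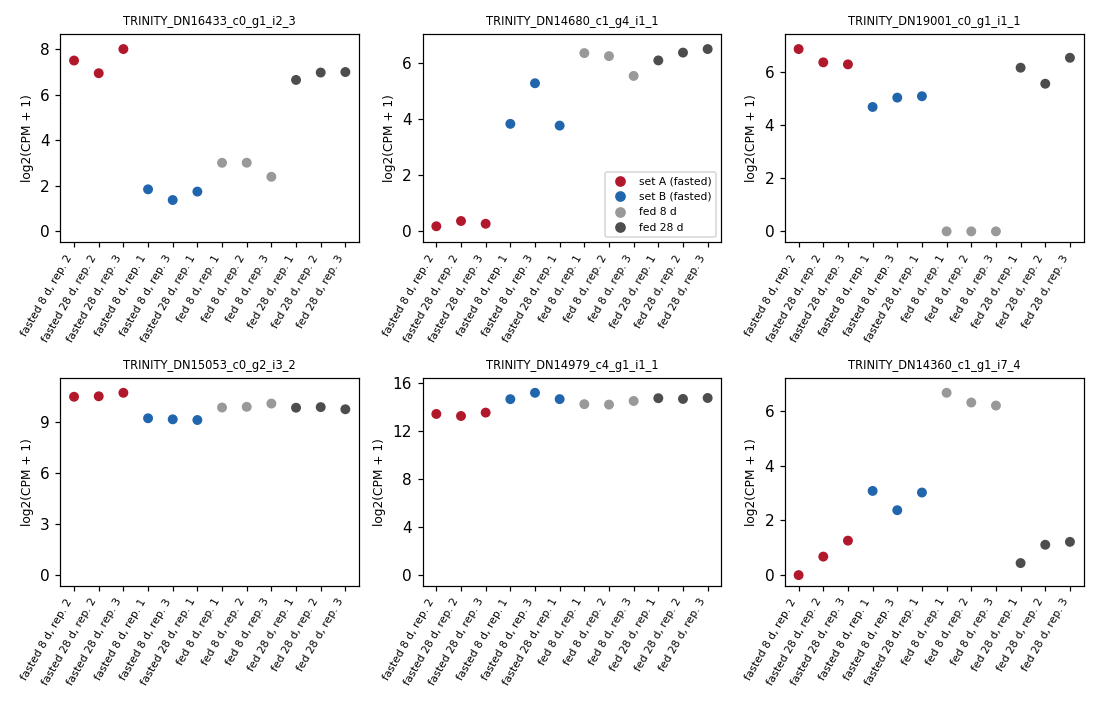
Expression of the 6 features named, each point 1 library, on the log2(CPM + 1) scale with a separate vertical axis in each panel; red points are set A, blue set B, light grey fed 8 d and dark grey fed 28 d. The left column shows features higher in set A, the middle column features higher in set B, and the right column the dividing features that differed most between the fed groups.

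The identifiers of the dividing features were unevenly spread over their last number, which runs from 1 to 4 and whose meaning the sources used here do not give. Of the 169 features higher in set A, 112 ended in 3 (66.3%, against 35.9% of all features tested) and 6 ended in 1. Of the 194 higher in set B, 87 ended in 1 (44.8%, against 17.6%) and 24 ended in 3. The unevenness had a similar size with library size alone, where 67.9% of the features higher in set A ended in 3 and 47.7% of those higher in set B ended in 1. Among features at 100 FPKM or more it was smaller but had the same direction, with 46.7% ending in 3 in the list higher in set A and 39.4% ending in 1 in the list higher in set B, against 28.1% and 29.7% of all such features.

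Features found mainly in 1 library tended to share a last number. Of the features with over 60% of their summed CPM in 1 library and at least 30 counts, 20 of 20 in fed 8-day replicate 3 and 20 of 22 in replicate 1 ended in 4. In fed 8-day replicate 2, 12 of 14 ended in 3, and in fed 28-day replicate 3, 11 of 12 ended in 1. No fasted library had more than 5 such features. Whether the last number marks separate assemblies, made from different libraries and then joined, was not tested. Because this doubt bears on what a feature is, a dividing feature is here a sequence of the reference whose count divides the livers, and it may not stand for a whole gene.

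The last number also moved with single libraries, in fasted and in fed fish. Detection at 10 counts was compared, in each library, between the features of 1 number and all features. Features ending in 1 exceeded all features most in fed 28-day replicate 3 (by 12.9 percentage points), fasted 8-day replicate 3 (12.8) and fasted 28-day replicate 1 (11.7), and by 3.24 at most in any other library. Both fasted libraries among them belong to set B.

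Features ending in 3 exceeded all features most in fasted 8-day replicate 2 (by 11.6 points), fasted 28-day replicate 3 (10.7) and fed 8-day replicate 2 (9.68). Elsewhere the excess was 2.78 points at most. Both fasted libraries among them belong to set A.

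The other numbers were less tied to 2 libraries of 1 set. Features ending in 2 were detected most, relative to all features, in fasted 28-day replicate 2 of set A (5.07 points), fed 28-day replicate 2 (2.55) and fasted 8-day replicate 1 of set B (0.0181). Features ending in 4 exceeded all features by 9.84 to 21.1 points in the 3 fed 8-day libraries and in fed 28-day replicate 1, and by 0.297 at most in any fasted library. Relative to all features, number 4 also parted the sets of fasted libraries. It stood at 0.297, -0.468 and -1.27 points in set B and between -3.10 and -5.53 in set A. As a plain percentage, features ending in 4 were instead detected more often in set A (60.6% to 64.6%) than in set B (58.3% to 59.7%). The part of the last number in the division was not tested; the division within each number is given next.

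**Figure D3:**
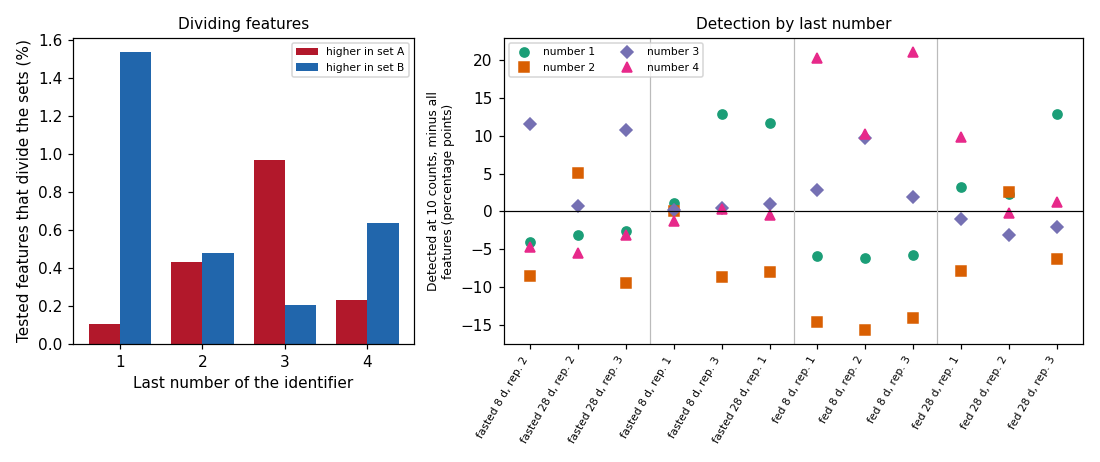
Left, percentage of tested features that divide the sets, by the last number of the identifier, with red bars for features higher in set A and blue bars for features higher in set B. Right, percentage of the features of each last number detected at 10 counts minus the percentage of all features so detected, in each library; number 3 is highest in 2 libraries of set A and in fed 8-day replicate 2, and number 1 in fed 28-day replicate 3 and 2 libraries of set B.

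The correlations between livers were also taken within each last number. As the sets were chosen on these same values, a higher r within sets is built in and tells nothing of the last number's part. For the 6881 tested features ending in 4, the number whose 4 most favoured libraries were all fed, r was 0.951 to 0.961 within set A, 0.948 to 0.960 within set B and 0.918 to 0.938 across the sets. For the 8096 ending in 2 it was 0.955 to 0.964 within set A and 0.925 to 0.942 across the sets, and the lowest value within set B was above all values across. For the 11571 ending in 3 the ranges did not meet either (0.939 to 0.951 within the sets and 0.905 to 0.924 across). For the 5664 ending in 1 they overlapped: the highest value across the sets was just above the lowest within set B, and the mean was 0.965 within set A, 0.955 within set B and 0.94 across.

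Dividing features were found under every number, but the balance turned. Among features ending in 4, 16 were higher in set A and 44 in set B. Among those ending in 2 the numbers were 35 and 39. Without a minimum gap, 8.49% of the features ending in 4 were higher in set A and 16.8% in set B, against 22.3% and 7.99% of the features ending in 3 and 5.26% and 24.4% of those ending in 1.

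The greater number of detected features in set A was likewise not shared by all numbers. Of the features ending in 3, 79.1%, 70.8% and 74.5% were detected at 10 counts in set A and 59.7%, 58.9% and 61.0% in set B. For those ending in 4 the percentages were 62.8%, 64.6% and 60.6% in set A and 58.3%, 58.7% and 59.7% in set B. The sets did not overlap in these 2 classes, but the distance was far smaller for number 4. For features ending in 1, at 63.4%, 67.0% and 61.1% against 60.7%, 71.3% and 71.9%, and for those ending in 2, at 58.9%, 75.2% and 54.2% against 59.6%, 49.7% and 52.1%, the sets overlapped.

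For most features higher in set A the fed livers lay nearer set B, but not for all last numbers. Each fed library was placed nearer to the set that held the closest value. Of the 169 features, 33 to 43 were nearer set A in a fed 8-day library and 40 to 46 in a fed 28-day library. All 6 fed livers were nearer set B for 94 features (55.6%) and nearer set A for 21. All 6 lay below the whole of set A for 126 of the 169 (74.6%). These features were chosen for high values in set A, so fed values below it are partly built in. No such shares were taken over all features, and the counts are a description. For 9 features all fed livers lay below every fasted liver, and for 5 they lay above every fasted liver. By last number, the placements nearer set A were 16.4% at 8 days and 16.1% at 28 days for the 112 features ending in 3, and 25.7% and 34.3% for the 35 ending in 2. For the 16 ending in 4 they were 64.6% and 60.4%, and for the 6 ending in 1 they were 16.7% and 61.1%.

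For the features higher in set B the fed groups took different places. Of the 194 features, 79, 83 and 80 were nearer set A in the fed 8-day libraries, and 43, 52 and 41 in the fed 28-day libraries. All 6 fed livers were nearer set B for 77 features (39.7%) and nearer set A for 13. For 40 features the fed 8-day livers were all nearer set A and the fed 28-day livers all nearer set B, and for 16 it was the reverse. For 108 of the 194 all 6 fed livers lay above the whole of set A, and for 24 they lay above every fasted liver. These features were chosen for low values in set A, so fed values above it are partly built in. Here too no shares were taken over all features.

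The place of the fed 8-day livers moved with the last number. Over the 3 fed 8-day libraries, 57.1% of the placements were nearer set A for the 87 features higher in set B that end in 1. The percentage was 52.1% for the 39 that end in 2, 16.7% for the 24 that end in 3 and 15.2% for the 44 that end in 4. Over the fed 28-day libraries these percentages were 24.9%, 22.2%, 19.4% and 23.5%. The fed 28-day livers thus sided with set B to a like extent for all 4 numbers, while the fed 8-day livers did not.

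**Figure D4:**
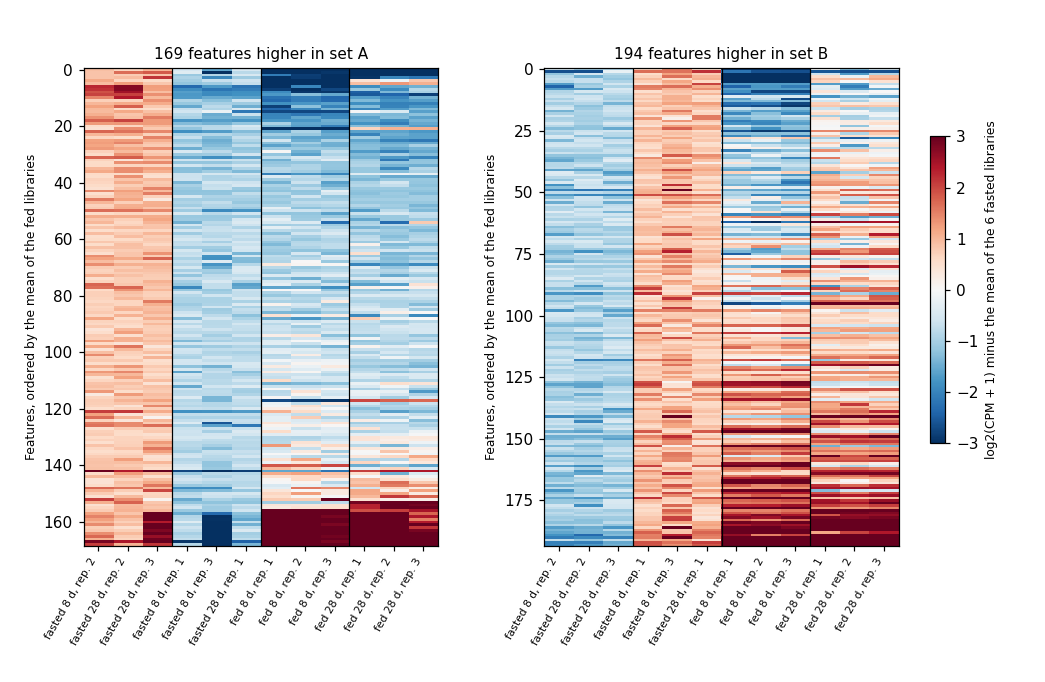
Heat maps of the 169 features higher in set A (left) and the 194 higher in set B (right) in the 12 libraries; colour gives log2(CPM + 1) minus the mean of the 6 fasted libraries, limited to 3 in either direction, and features are ordered by their mean in fed livers. Most features of the left map are blue in fed livers as in set B, apart from a block at the bottom with high values in fed livers.

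That block held features that were very high in fed livers. Of the features higher in set A, 11 reached 1000 CPM in a fed library, among them TRINITY_DN15053_c0_g2_i3_2 described above. The other 10 were singled out after their values had been seen. Over the 12 libraries, their pairwise r on the log2(CPM + 1) scale was 0.81 at the lowest and 0.96 at the median. For all 11 the lowest was 0.38 and the median 0.95. The 12 libraries include the fasted ones used to choose the lists. The bound of 1000 CPM in a fed library also favours a common profile, so a high r is partly built in. They came from 10 different assembly clusters, were 549 to 1767 nucleotides long and ended in 2, 3 or 4. By a bound of 0.95, 28 features tested had such an r with the mean profile of the 10, and 18 of them were not dividing features. Of the 28, 26 were higher in set A without overlap of the sets, against 14.2% of all features tested. The profile was taken from features higher in set A, so this is largely built in.

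The median of these 10 features was 152, 88.4 and 380 CPM in set A and 24.1, 3.97 and 20.3 in set B. In fed fish it was 1965, 1748 and 541 CPM at 8 days and 1867, 3032 and 560 at 28 days. Every fed liver was above every liver of set B for each of the 10, and above every fasted liver for 3 of them.

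The 10 features also varied strongly inside each group. Replicate 3 of the 28-day fast was the highest fasted library and replicate 3 of the 8-day fast the lowest for all 10. Replicate 3 was the lowest fed library of its day for all 10 at 8 days and for all 10 at 28 days. Over all features, libraries with the same replicate number deviated together little, as given below. Whether the repeated number has a meaning for these 10 features was not tested.

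These few features held most of the list's counts in fed livers but not in fasted ones. They took 0.219%, 0.158% and 0.552% of all counts in set A, 0.0385%, 0.00592% and 0.0325% in set B and 0.630% to 2.86% in fed livers. The remaining 159 features higher in set A took 0.596%, 0.624% and 0.586% in set A, 0.135%, 0.116% and 0.143% in set B and 0.243% to 0.398% in fed livers. The summed share of the whole list was thus higher in several fed livers than in set A, although most of its features were lower there.

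**Figure D5:**
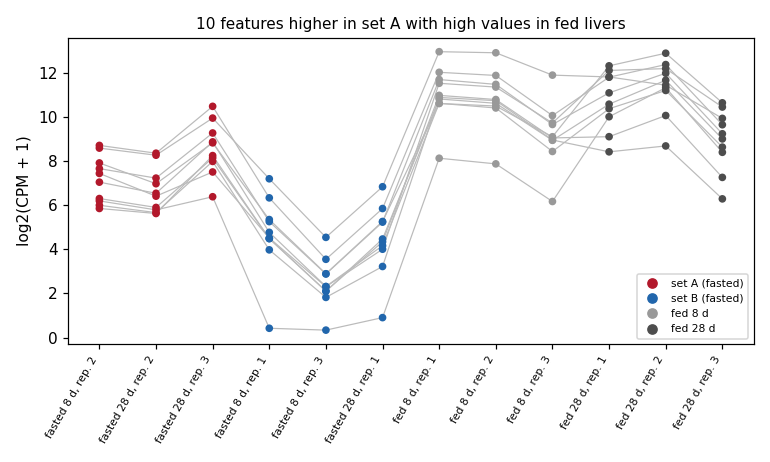
Expression of 10 of the 11 features higher in set A that reached 1000 CPM in a fed library, on the log2(CPM + 1) scale. TRINITY_DN15053_c0_g2_i3_2 is left out. Each grey line joins the values of 1 feature in the 12 libraries. The values fall from set A to set B, lowest in fasted 8-day replicate 3. Every fed liver lies above all of set B, but above every fasted liver for only 3 of the 10 features. Replicate 3 is the lowest of each fed group.

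The comparison of fed fish at 28 and 8 days was the one test that used none of the fasted libraries, and it asked whether features that divide fasted livers also vary between fed groups. By edgeR's quasi-likelihood test on the 6 fed libraries, 17.8% of 25735 features were higher at 28 days and 17% were lower (adjusted p under the threshold of 0.05). Of the features higher in set A, 119 could be tested, and 24 were higher (20.2%) and 18 lower (15.1%). These shares were close to the background. Of the features higher in set B, 182 could be tested, and 89 were higher (48.9%) and 42 lower (23.1%), with a median log2 fold change of 0.65 against -0.01 for all features.

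By abundance class, the share of the features higher in set B that was called higher in fed livers of 28 days, set beside that of all features, was 38.6% against 14.4% from 1 to 10 FPKM, 51.4% against 25.2% from 10 to 100 and 54.5% against 44.7% at 100 or more. By last number it was 55.1% against 30.6% for features ending in 1, 66.7% against 27.6% for 2, 41.7% against 11.3% for 3 and 27.3% against 9.02% for 4. The share called lower was 18.2% against 15.5%, 26.7% against 19.3% and 18.2% against 12.8% in the same abundance classes. For last numbers 1 to 4 it was 12.8% against 8.67%, 13.9% against 6.88%, 33.3% against 18.2% and 43.2% against 30.5%. Of the 44 features ending in 4, 12 were higher and 19 lower. The part of abundance and of the last number in these shares was not tested. With library size alone 75 of the features higher in set B were called higher and 49 lower, where 3431 of all features were higher and 6018 lower. No test compares the list with the rest.

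The dividing feature with the largest rise between the fed groups was TRINITY_DN19001_c0_g1_i1_1 (353 nucleotides), of the list higher in set A. None of the 3 fed 8-day livers had a count, and the fed 28-day livers had 70.0, 45.7 and 90.9 CPM. In fasted fish it was at 114, 80.6 and 76.4 CPM in set A and 24.5, 31.6 and 32.7 in set B. The fed 28-day mean was at least 431-fold higher than 3 counts per library allow in the fed 8-day livers (edgeR adjusted p = 0.000302, higher in 3 of 3 libraries), and all 6 fasted livers had counts of it. Its identifier ends in 1, and features ending in 1 were detected less often than all features in each fed 8-day library (by 5.79 to 6.13 points), whose part in this absence was not tested.

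The largest fall was that of TRINITY_DN14360_c1_g1_i7_4 (3576 nucleotides), of the list higher in set B. Fed 8-day livers had 101, 78.5 and 72.6 CPM and fed 28-day livers 0.357, 1.16 and 1.32, or 84.0 ± 14.8 and 0.946 ± 0.517 (mean ± SD, n = 3 each). Its log2 fold change was -6.44 ± 0.38 (SE, edgeR adjusted p = 7.41e-05). Set B, at 7.45, 4.18 and 7.12 CPM, lay between the fed groups, and set A, at 0.599 and 1.40 CPM at 28 days and near 0 at 8 days, lay near the fed 28-day livers. Its identifier ends in 4, the number detected most in fed 8-day livers, and the part of this was not tested.

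The features named for the division differed in the same test. TRINITY_DN16433_c0_g1_i2_3 was higher at 28 days by a log2 fold change of 4.29 ± 0.24 (SE; edgeR adjusted p = 6.39e-05; higher in 3 of 3 libraries), and TRINITY_DN14979_c4_g1_i1_1 by 0.44 ± 0.09 (edgeR adjusted p = 0.0112, higher in 3 of 3). TRINITY_DN15053_c0_g2_i3_2 and TRINITY_DN14680_c1_g4_i1_1 did not pass, with log2 fold changes of -0.08 ± 0.09 and 0.29 ± 0.23 (edgeR adjusted p = 0.518 and 0.395).

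The comparisons of fasted with fed fish contain the sets on their fasted side, in the ratio of 1 library of set A to 2 of set B at 8 days and 2 to 1 at 28 days. Choosing features that divide the sets widens their spread within each fasted group, so nothing is read from a low share of calls. The choice also moves the fasted means toward the set with 2 libraries, which is set B at 8 days and set A at 28 days. An excess of calls in 1 direction is thus partly built in, and nothing is read from it either. At 8 days edgeR called 13.3% of all features higher and 12.1% lower in fasted fish. Of the 169 features higher in set A it called 22 higher and 11 lower, and of the 194 higher in set B 35 higher and 12 lower. At 28 days it called 4.14% of all features higher and 5.79% lower, and the numbers were 21 and 3 of the 169 and 0 and 29 of the 194. At 28 days 97 of the 169, 72 of the 194 and 8015 of all 32212 features had an unadjusted p under 0.05. DESeq2 called 64 higher and 11 lower of the former list, 3 and 56 of the latter, and 2411 and 3008 of all features.

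The lists were chosen for high or low values in set A, so leaving out its libraries must move the fasted mean, and the counts without them are a description. With all 3 libraries of set A left out, an alternative chosen after the data were seen, edgeR called 10 of the features higher in set A higher and 32 lower at 8 days, 80 and 33 of those higher in set B, and 3441 and 3489 of all features. For the 28-day comparison the numbers were 2 and 16, 21 and 25, and 380 and 700. The fasted 28-day group then had 1 library, which was taken to vary like the other groups. The filter was run anew, so this fit tested 153 of the features higher in set A, 194 of those higher in set B and 35779 features in all. Without replicate 2 of the 8-day fast alone, 11 of the 169 features higher in set A were called higher and 21 lower. Of the 34050 features then tested, 3693 were called higher and 3275 lower. By limma on log2(FPKM + 1) the 8-day calls were 8 and 13 for the features higher in set A, 25 and 39 for those higher in set B, and 3363 and 4886 for all features.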

How the data were processed

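The authors deposited a table of estimated counts per feature, which are not whole numbers, and a table of FPKM values made by the authors, both for 42353 features and 12 libraries. Trimmomatic and Bowtie2 are among the tools named, without versions, per the submitters' processing notes; the sources used here do not give the assembler, the counting program or an annotation. Stranded mRNA libraries were made from RNA whose integrity number was at least 7, per the labels' protocols. Reads that match near-identical features may have been shared between them, so values of such features are uncertain. All columns were matched to samples by group code and replicate number.

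Estimated counts were rounded for the count tests, for which plain counts had been assumed. Features were kept with edgeR's filterByExpr by group (32212 kept, 99.7% to 99.8% of the counts) and scaled by TMM. The fed groups were compared in the 6 fed libraries alone and fasted with fed fish in all 12, with edgeR 4.0.16 (R 4.3.3, quasi-likelihood F test, robust), Benjamini-Hochberg adjustment over all features and a threshold of 0.05. Standard errors were derived from fold changes and F statistics and are approximate. The fits were tested on simulated data. Lengths were counts divided by FPKM, by a factor for each library and by a common constant. That constant was chosen to bring lengths close to whole numbers. All were then whole within 0.02 nucleotides, which is partly built in. Thinning used the hypergeometric mean of the whole part of the counts. Chi-square per feature was taken over features with at least 20 counts. Shares of counts are percentages of the library total.

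The sets, the lists and the tests were chosen with earlier results of these data known. Features named were, in each direction, the dividing feature with the largest gap at 10 CPM or more throughout the high set, the one with the highest mean fasted CPM, and the one with the largest fold change among those that passed between the fed groups without overlap at a mean of 10 CPM; 70, 123, 93 and 49 features were eligible for the gap rules and the fed rules. The analysis by last number and the block of 10 features were chosen after their values were seen. Alternatives were other scalings, filters, pseudocounts and gaps, FPKM, DESeq2 1.42.0, limma 3.58.1, a replicate block and each library left out.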

Additional observations from a re-analysis of the deposited data

Results flagged for a closer look

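For 2 of the named features the fasting effect differed between the days by edgeR's test of the difference itself. For TRINITY_DN14360_c1_g1_i7_4 the log2 fasting effect was -4.46 at 8 days (edgeR adjusted p = 0.0163). At 28 days it was 1.67 and did not pass (edgeR adjusted p = 0.447). This feature thus had a signed difference, 28 days minus 8 days, of 6.13 ± 1.65 (SE, edgeR adjusted p = 0.0313). Its values were 101, 78.5 and 72.6 CPM in fed livers of 8 days, at most 1.32 in fed livers of 28 days and at most 7.45 in any fasted liver. For TRINITY_DN19001_c0_g1_i1_1 the fitted difference was -13.17 (edgeR adjusted p = 0.000753). This value was fitted with no count in the fed 8-day livers, depends on the prior count and is no bound. Each difference rests mostly on the fed groups. Mean CPM in fasted livers was 3.88 at 8 days and 3.04 at 28 days for TRINITY_DN14360_c1_g1_i7_4, and 56.8 and 63.2 for TRINITY_DN19001_c0_g1_i1_1. In fed livers the means were 84.0 and 0.946 for the former, and 0 and 68.9 for the latter. Both features were named for the largest change between the fed groups, which is part of this difference, so nothing is read from their passing. Of all dividing features, 9 of the 169 higher in set A (5.33%) and 41 of the 194 higher in set B (21.1%) passed this test, against 14.4% of all features. The fit includes the fasted libraries on which the lists were chosen, and that choice widens the spread within each fasted group. The sets are also mixed in different ratios at 8 and 28 days, so nothing is read from these shares.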

How the results depend on the processing

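The numbers of dividing features depended on how they were counted. Of features higher in set A there were 169, and 293 with library size alone, 405 with FPKM, 559 with a pseudocount of 0.1, 72 with only features at 10 CPM in 3 libraries, 4579 without a minimum gap and 22 with a gap of 4-fold. Of features higher in set B there were 194, and 107, 127, 395, 147, 4328 and 22 in the same settings. The 10 CPM filter thus left 72 features higher in set A and 147 higher in set B. Leaving out each fasted library in turn gave 215 to 261 and 273 to 304, as a smaller set overlaps less. The mean share of features higher in set A for which a fed library lay nearer set A was 24.3%, 31.9% with a pseudocount of 0.1 and 23.7% to 25.2% with each fed library left out; the distance in detected features was 1526, 631 at 1 count, 2020 at 1 FPKM, 1141 after thinning and 1526 to 3124 with each fasted library left out. Between the fed groups 8947 features passed, 5136 at an adjusted p of 0.01. Of the dividing features 173 passed, 83 with all 12 libraries in the fit, where the spread of the fasted libraries enters. In fasted against fed fish 80 passed at 8 days, 35 at an adjusted p of 0.01, 155 without set A and 50 to 94 with each library left out. At 28 days 53 passed, 134 by DESeq2, 12 at an adjusted p of 0.01 and 14 to 135 with each library left out (135 without fasted replicate 1, 14 without fasted replicate 2 or 3). The cause was not tested.

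With the replicate number as a block, 6834 features passed between the fed groups, 164 of them dividing, and 81 and 52 dividing features passed in fasted against fed fish at 8 and 28 days. Over all features, libraries with the same number deviated together little from their group means (correlations of -0.0217 to 0.0806). Such a correlation cannot show whether a few features moved with the number, so nothing is read from it about pairing. Summing features over an assembly locus, taken within 1 last number, gave no other value, since each such locus had 1 feature. Features that differ in the last number were not summed. With 3 libraries in a set, low-abundance gaps rest on few counts.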
